A study of Mus musculus with 18 samples.

Results

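Expression of 10 genes of the tumour necrosis factor (TNF) receptor superfamily was described in mouse regulatory T (Treg) cells from 6 sites. The genes were taken by symbol (Tnfrsf4, Tnfrsf9, Tnfrsf18, Tnfrsf1b, Tnfrsf1a, Cd27, Tnfrsf25, Tnfrsf8, Fas and Tnfrsf14) and matched to Ensembl gene IDs, which gave 10 of the 55487 IDs in the deposited tables. Treg cells, here CD4+Foxp3+ cells, had been sorted fresh from wild-type mice that received no treatment. The sites were peripheral blood, bone marrow, spleen, lymph node, liver and lung, with 3 poly(A) RNA libraries for each and 18 in all, and the series sets blood against the other sites. The labels give no age, sex, number of animals or sorting gate, and do not say whether the 3 libraries of a site came from separate mice. The p-values therefore measure the spread between these libraries, which may be technical.

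TNF receptor superfamily members are surface proteins that bind trimeric ligands of the TNF family on neighbouring cells or in solution. One branch, which includes OX40 (Tnfrsf4), CD137 (Tnfrsf9), GITR (Tnfrsf18), TNF receptor 2 (Tnfrsf1b), CD27, CD30 (Tnfrsf8) and HVEM (Tnfrsf14), recruits TRAF adaptors and turns on NF-kappaB, and several of its members serve as costimulatory receptors of Treg cells. The other branch carries a cytoplasmic death domain and includes TNF receptor 1 (Tnfrsf1a), Fas and DR3 (Tnfrsf25).

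All 10 genes had a promoter window in RefSeq (GRCm38.p6), a stretch of 300 bases around each annotated start, with 12 windows in all because Tnfrsf9 and Tnfrsf25 have more than 1 start. The windows of 4 genes are shown, since OX40, CD137 and GITR were lower in blood than in every organ under all alternatives and TNF receptor 1 was higher in blood than in every organ under all of them. Capitals mark letters that match a searched motif, and the sequences run 5′ to 3′ on the strand of the gene, which is the plus strand for all 4.
Tnfrsf4, chr4:156013445-156013744: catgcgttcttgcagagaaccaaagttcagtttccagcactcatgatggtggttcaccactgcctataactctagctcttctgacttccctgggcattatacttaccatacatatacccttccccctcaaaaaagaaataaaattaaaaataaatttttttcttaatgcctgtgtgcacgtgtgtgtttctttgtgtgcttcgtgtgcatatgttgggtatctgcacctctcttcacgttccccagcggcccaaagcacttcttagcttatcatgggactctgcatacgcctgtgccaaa
Tnfrsf18, chr4:156026072-156026371: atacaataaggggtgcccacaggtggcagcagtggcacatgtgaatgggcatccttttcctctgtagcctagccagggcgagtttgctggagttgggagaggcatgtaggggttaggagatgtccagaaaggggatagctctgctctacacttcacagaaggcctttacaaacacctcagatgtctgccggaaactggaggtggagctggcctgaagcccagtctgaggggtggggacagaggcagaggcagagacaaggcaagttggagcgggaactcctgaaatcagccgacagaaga
Tnfrsf9, the second start, chr4:150927749-150928048: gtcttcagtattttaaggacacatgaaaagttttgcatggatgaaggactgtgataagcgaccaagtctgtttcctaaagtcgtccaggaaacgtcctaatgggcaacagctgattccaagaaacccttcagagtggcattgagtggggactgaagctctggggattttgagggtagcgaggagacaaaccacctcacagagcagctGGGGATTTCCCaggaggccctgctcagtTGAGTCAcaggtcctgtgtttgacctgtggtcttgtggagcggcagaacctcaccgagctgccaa
Tnfrsf1a, chr6:125349473-125349772: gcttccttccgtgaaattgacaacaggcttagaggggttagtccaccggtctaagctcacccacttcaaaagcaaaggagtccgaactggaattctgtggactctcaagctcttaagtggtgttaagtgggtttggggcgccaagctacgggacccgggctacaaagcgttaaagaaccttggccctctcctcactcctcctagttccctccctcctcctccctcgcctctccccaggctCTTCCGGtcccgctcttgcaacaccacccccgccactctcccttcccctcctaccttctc

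The motifs searched, on both strands, were the kappaB site, AP-1 (TGANTCA), the cAMP response element (TGACGTCA), forkhead (GTAAACA), Runx (TGTGGTT) and Ets (CCGGAAG). In the Tnfrsf9 window the capitals cover a pair of overlapping kappaB matches, at -43 to -34 and -42 to -33 from the start, and an AP-1 match at -15 to -9. In the Tnfrsf1a window they mark an Ets match at -10 to -4. The Tnfrsf4 and Tnfrsf18 windows, and that of the first Tnfrsf9 start (not shown), held none of the 6 motifs. This says only that these letters are not in these windows. Among the windows not shown, Tnfrsf8 held a kappaB match at -168 to -159 and an AP-1 match at -132 to -126, Fas held an AP-1 match at -211 to -205, and Tnfrsf1b held an Ets match at -178 to -172. Of all 32851 mouse windows, 4.51% held a kappaB match, 7.81% AP-1, 1.79% the cAMP response element, 3.65% forkhead, 5.27% Runx and 8.86% Ets. A match is a run of letters and not evidence of binding.

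The expression values are TPM, a transcript abundance per library that is normalised for gene length and for the library total, so levels of different genes can be set side by side. Foxp3 was present in every library, at 85.4 to 92.2 TPM in blood and at 131.7 to 240.3 TPM in the organs. RNA of other cells was present too, unevenly. In blood the 16 myeloid markers together made up 28394 to 29128 TPM, and 39096 to 39357 in bone marrow, against 844 to 969 in spleen, 164 to 206 in lymph node, 334 to 614 in liver and 1980 to 2087 in lung. All 16 reached at least 1 TPM in blood, bone marrow, spleen and lung, 15 did in liver and 10 in lymph node. The 7 platelet markers summed to 2209 to 2244 TPM in blood and to at most 82.8 in any other library, and the 8 CD8 and natural killer markers to 258 to 279 in blood against 40.4 to 190 elsewhere. Erythroid markers (8 genes) were highest in liver, at 10934 to 11978 TPM, against 6543 to 6737 in bone marrow, 2833 to 2999 in blood, 1859 to 2003 in spleen, 1430 to 1550 in lung and 74.2 to 76.8 in lymph node. The sum of 8 B cell markers was 1817 to 1877 in spleen, 1434 to 1466 in bone marrow, 1218 to 1306 in blood, 609 to 618 in lymph node, 382 to 429 in liver and 296 to 364 in lung. For 14 markers of parenchyma, endothelium and stroma the sum was 350 to 410 in lung and 87.8 to 146 elsewhere, and for 7 plasma cell markers 415 to 465 in bone marrow and 85.6 to 290 elsewhere. The part of these cells in the receptor levels was not tested. The geometric mean of 20 general T cell genes was 163 to 165 TPM in blood, 237 to 242 in bone marrow, 294 to 302 in spleen, 354 to 361 in lymph node, 314 to 316 in liver and 267 to 273 in lung. The comparisons with blood were also computed with every library scaled to these 20 genes. That scaling raises all genes of the blood libraries relative to the organs, and it moved the median log2 difference of all tested genes to 0.32 against bone marrow, 0.69 against spleen, 0.74 against lymph node, 0.86 against liver and 0.71 against lung. In such bulk samples, fewer cells of a type and less RNA per cell cannot be told apart.

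OX40, CD137 and GITR transcripts were lower in blood than in all 5 organs, and TNF receptor 1 and Fas transcripts were higher in blood than in all 5, with the same directions after scaling to the T cell genes. DR3 transcripts were also lower in all 5 comparisons, but after that scaling none of its differences was called and those with spleen, liver and lung lay above 0. Of the 16694 genes tested, 3.44% were lower in blood in all 5 comparisons and 7.49% were higher in all 5. All 10 receptors differed among the 6 sites in the F test (limma, adjusted p from 1.69e-15 for Tnfrsf4 to 0.00413 for Tnfrsf14), as did 68.0% of all tested genes. These 5 comparisons share the blood libraries.

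Against bone marrow, 7 of the 10 receptors were called at an adjusted p under 0.05 (limma), where 31.8% of all genes were, and 3 of them were higher in blood (13.0% of all genes) and 4 lower (18.8%). Spleen gave 9 calls (35.4% of all genes), with 3 higher (20.1%) and 6 lower (15.3%). Lymph node also gave 9 (37.4%), with 3 higher (16.4%) and 6 lower (21.0%). The liver comparison had 7 calls (39.4%), with 3 higher (23.3%) and 4 lower (16.1%), and that of lung had 8 (43.7%), with 3 higher (26.4%) and 5 lower (17.3%). Counted by library instead, the 3 blood values did not overlap the 3 organ values for 8 receptors against bone marrow (58.6% of all genes), 9 against spleen (53.3%), 10 against lymph node (64.5%), 8 against liver (45.5%) and 9 against lung (52.0%). With scaling to the T cell genes the split against bone marrow was 5 higher (33.1% of all genes) and 3 lower (7.60%), and against spleen 3 higher (53.1%) and 4 lower (2.95%). On that scale lymph node gave 3 higher (56.7%) and 3 lower (2.00%), liver 6 higher (61.7%) and 3 lower (4.71%), and lung 6 higher (54.4%) and 3 lower (6.85%). The median log2 difference of the 10 receptors, blood minus organ, was -0.11 for bone marrow, -0.84 for spleen, -1.05 for lymph node, 0.19 for liver and -0.23 for lung. The same median over all tested genes was -0.11, 0.00, -0.15, 0.07 and 0.12. With scaling to the T cell genes the receptors' median was 0.43, 0.02, 0.05, 1.08 and 0.49 in the same order of organs, against 0.32, 0.69, 0.74, 0.86 and 0.71 over all tested genes.

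**Figure D1:**
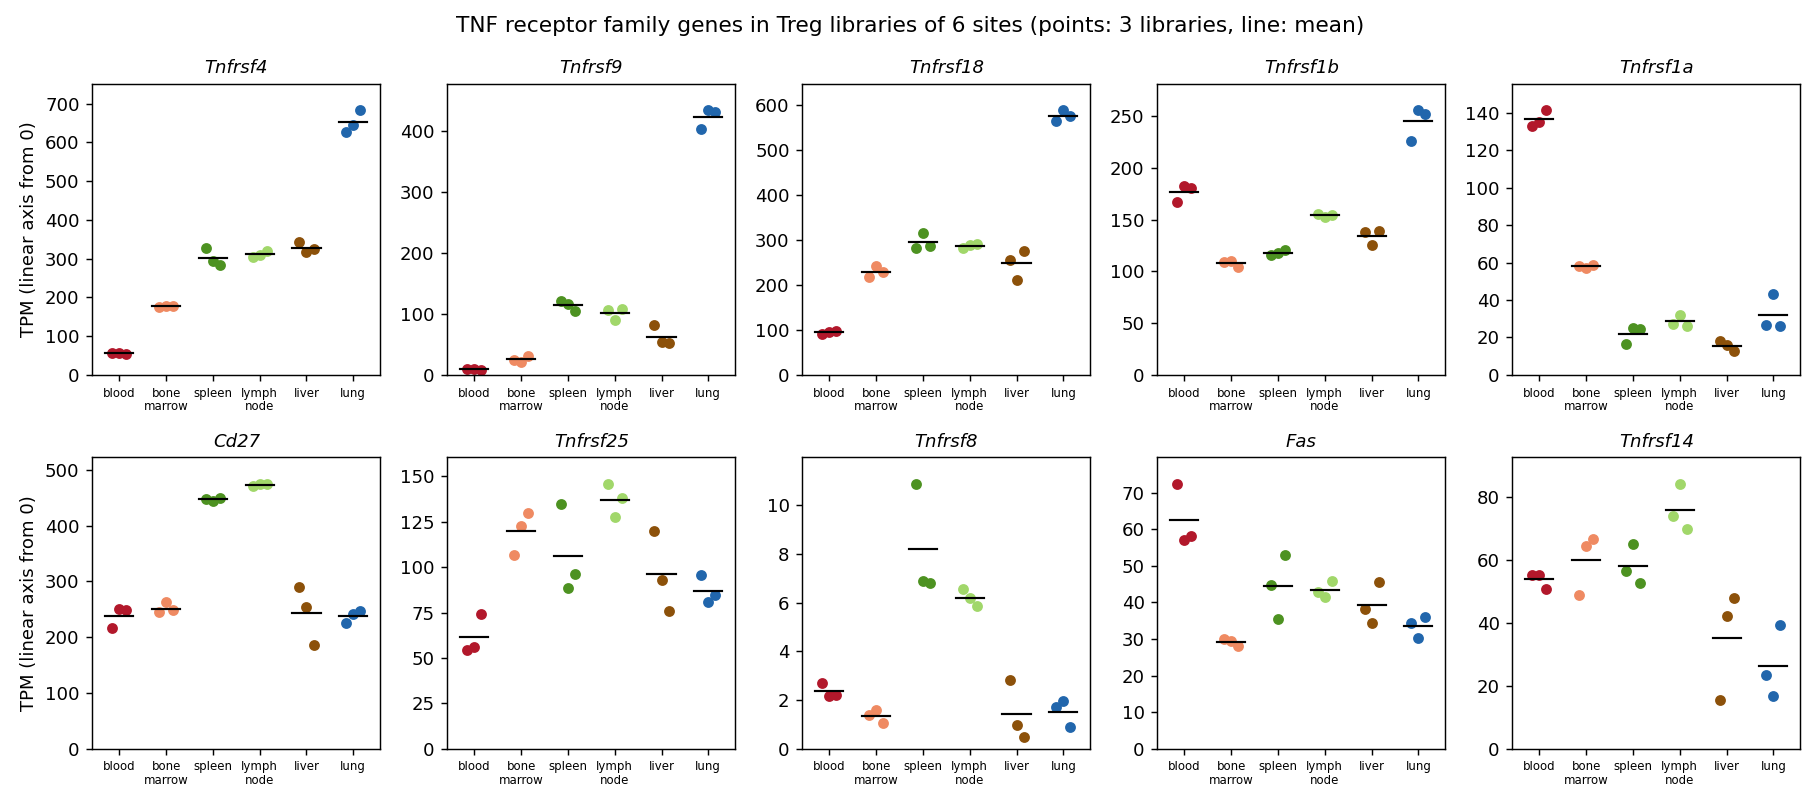
TPM of each of the 10 receptors (vertical axes, linear from 0, a separate scale per gene) in the 6 sites, with 1 point per library and a line at the mean of 3. Tnfrsf4, Tnfrsf9 and Tnfrsf18 are lowest in blood and highest in lung, Tnfrsf1a and Fas are highest in blood, and Cd27 is highest in lymph node and spleen.

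Tnfrsf4 encodes OX40, a costimulatory receptor that effector and Treg cells raise after antigen contact. Its level was 56.7, 55.5 and 54.1 TPM in the blood libraries, 176.1, 176.5 and 178.7 in bone marrow, 326.8, 294.6 and 283.3 in spleen, 303.9, 308.0 and 320.6 in lymph node, 343.6, 316.2 and 324.6 in liver, and 627.2, 645.7 and 683.0 in lung. Every blood library was below every organ library, and every lung library was above all others. The mean in lung was 11.8-fold that in blood. The log2 difference, blood minus organ on the log2(TPM + 1) scale, ran from -1.66 in bone marrow (SE 0.06, adjusted p = 5.22e-12, limma) through -2.42 in spleen, -2.47 in lymph node and -2.54 in liver to -3.53 in lung (SE 0.06, adjusted p = 4.10e-16). Scaled to the T cell genes, the difference was -1.13 in bone marrow, -1.57 in spleen, -1.35 in lymph node, -1.61 in liver and -2.82 in lung. Between neighbours in the order of levels, liver, lymph node and spleen were not separated (liver over lymph node 0.08, adjusted p = 0.319; lymph node over spleen 0.05, adjusted p = 0.710). Lung stood above liver by 0.99 (adjusted p = 2.25e-09) and spleen above bone marrow by 0.76 (adjusted p = 3.77e-08).

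Tnfrsf9 encodes CD137, an inducible costimulatory receptor that marks recently activated T cells, and it had the widest range of the 10 genes. It measured 9.17, 10.1 and 7.72 TPM in blood, 25.0, 21.0 and 30.3 in bone marrow, 120.9, 116.8 and 104.9 in spleen, 106.8, 89.9 and 107.1 in lymph node, 81.1, 53.8 and 51.5 in liver, and 403.6, 433.8 and 430.3 in lung. Blood was again below every organ library without overlap, and the lung libraries were more than 3-fold above the highest library of any other site. The lung mean was 47.1-fold the blood mean, a log2 difference of -5.41 (SE 0.16, adjusted p = 4.10e-13, limma). The blood difference was smallest with bone marrow at -1.40 (adjusted p = 5.24e-06) and stood at -3.53 with spleen, -3.36 with lymph node and -2.64 with liver. Scaled to the T cell genes, the difference was -0.91 with bone marrow, -2.73 with spleen, -2.29 with lymph node, -1.76 with liver and -4.74 with lung. Spleen and lymph node did not differ beyond their spread (0.17, adjusted p = 0.584). Lymph node was above liver by 0.72 (adjusted p = 0.00276, but 0.0544 when only these groups were fitted) and liver above bone marrow by 1.24 (adjusted p = 1.87e-05).

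Tnfrsf18 encodes GITR, which Treg cells carry constitutively. Its level was 91.2, 94.8 and 96.9 TPM in blood, 217.4, 242.4 and 228.6 in bone marrow, 282.5, 314.3 and 287.3 in spleen, 282.4, 287.6 and 291.6 in lymph node, 256.3, 211.5 and 276.2 in liver, and 563.6, 588.2 and 576.2 in lung. The lung libraries were all above, and the blood libraries all below, those of the other sites. The lung mean was 6.11-fold the blood mean, a log2 difference of -2.60 (SE 0.08, adjusted p = 4.46e-13, limma). The difference was -1.27 with bone marrow, -1.63 with spleen, -1.60 with lymph node and -1.38 with liver. With T cell scaling it was -0.74, -0.77, -0.48, -0.44 and -1.88 for bone marrow, spleen, lymph node, liver and lung, each still called. The order of the middle sites was resolved only in part. Spleen and lymph node differed by 0.04 (adjusted p = 0.879), liver and bone marrow by 0.10 (adjusted p = 0.329). Spleen (adjusted p = 0.00254, limma) and lymph node (0.00552) were above bone marrow, and spleen was above liver by 0.26 (adjusted p = 0.0200). Lymph node exceeded liver by 0.22 (adjusted p = 0.0423) in a call that held in 14 of 29 alternatives. Antisense gene Gm16008 overlaps exons of Tnfrsf18, at a mean of 4.73 TPM in blood and 32.6 in lung, and whether the counting used strand is not given in the sources used here.

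For these 3 genes, each difference between blood and an organ and each between lung and another organ was called in the same direction in all 29 alternatives. Their ratios within a library also varied by site. OX40 over GITR was 0.588 ± 0.0316 in blood and 0.773 ± 0.0416 in bone marrow (SD, n = 3), and 1.03 ± 0.115 in spleen, 1.08 ± 0.0149 in lymph node, 1.34 ± 0.16 in liver and 1.13 ± 0.0469 in lung. CD137 over OX40 was 0.162 ± 0.0192 in blood, 0.144 ± 0.0251 in bone marrow, 0.188 ± 0.0419 in liver, 0.326 ± 0.0306 in lymph node, 0.379 ± 0.0153 in spleen and 0.648 ± 0.0213 in lung. The blood and liver libraries thus overlapped in CD137 over OX40, while those of lung lay above all others. The differences between sites in these ratios were not tested.

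**Figure D2:**
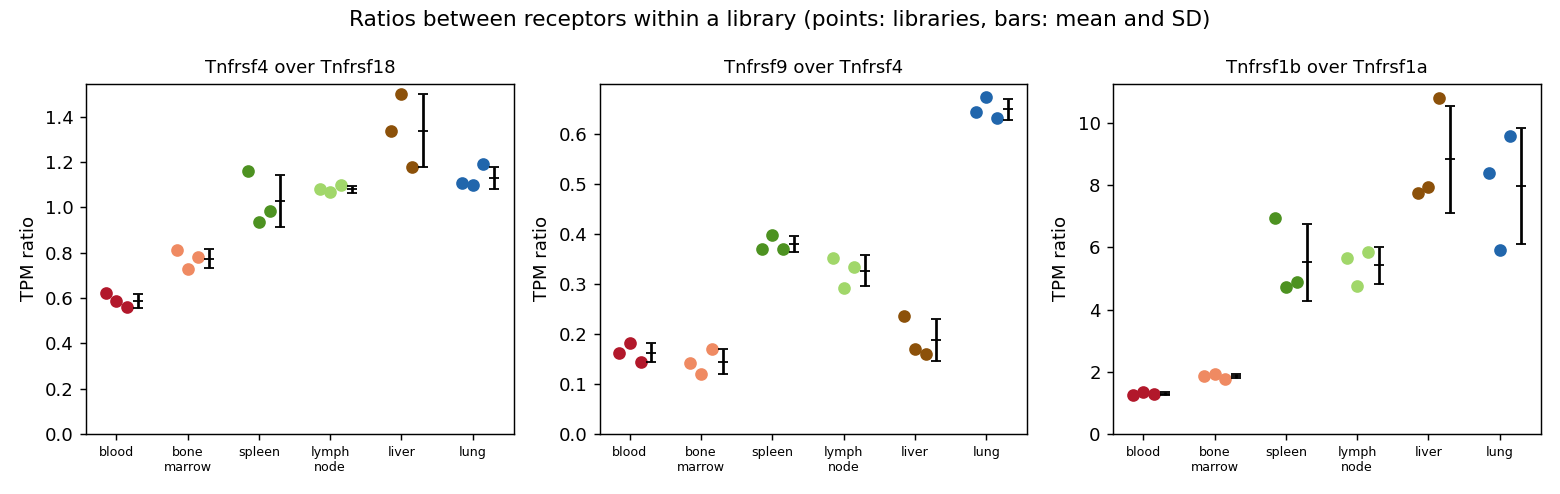
Ratio of TPM values within a library (vertical axes, linear from 0) for Tnfrsf4 over Tnfrsf18, Tnfrsf9 over Tnfrsf4 and Tnfrsf1b over Tnfrsf1a in the 6 sites, with points for libraries and bars for mean and SD (n = 3). Blood has the lowest Tnfrsf4 over Tnfrsf18 (0.588) and Tnfrsf1b over Tnfrsf1a (1.29), and lung the highest Tnfrsf9 over Tnfrsf4 (0.648).

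Relative to Foxp3 in the same library, blood also had the lowest levels of the 3 genes. OX40 over Foxp3 was 0.626 ± 0.0383 in blood, 1.2 ± 0.0338 in bone marrow, 1.3 ± 0.0314 in lymph node, 2.17 ± 0.274 in spleen, 2.21 ± 0.188 in liver and 2.83 ± 0.108 in lung (SD, n = 3). CD137 over Foxp3 went from 0.102 ± 0.0158 in blood to 1.83 ± 0.0176 in lung. GITR over Foxp3 was 1.06 ± 0.0111 in blood and 2.5 ± 0.033 in lung, with lymph node close to blood at 1.2 ± 0.0201.

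The receptors of TNF itself behaved differently from each other. Tnfrsf1b encodes TNF receptor 2, the TNF receptor of Treg cells that lacks a death domain. Its level was 167.4, 182.5 and 180.1 TPM in blood, 108.7, 109.7 and 104.2 in bone marrow, 115.9, 117.8 and 120.6 in spleen, 155.5, 152.1 and 154.7 in lymph node, 138.5, 125.1 and 139.3 in liver, and 226.1, 255.7 and 252.1 in lung. Lung was highest and blood second, with no overlap between blood and any organ. Blood exceeded bone marrow by 0.71 (adjusted p = 2.27e-07, limma), spleen by 0.58 (adjusted p = 1.48e-06) and liver by 0.39 (adjusted p = 7.44e-05) on the log2 scale. The difference from lung was -0.47 (adjusted p = 1.11e-05) and turned to 0.26 (adjusted p = 0.00117) with T cell scaling, which gave 1.25 for bone marrow, 1.44 for spleen, 1.32 for lymph node (adjusted p = 1.76e-11) and 1.33 for liver. From TPM as deposited, blood over lymph node, 0.20 (adjusted p = 0.0187), was lost without blood replicate 2 (adjusted p = 0.0753), blood replicate 3 (0.0655) or lymph node replicate 2 (0.0615), without abundant RNA classes (0.123), and with variances moderated without trend or robust settings (0.0822). Among the organs, lymph node exceeded liver by 0.20 (adjusted p = 0.0208, called in 22 of 29 alternatives) and liver exceeded spleen by 0.18 (adjusted p = 0.0321, in 19 of 29), while spleen and bone marrow were not separated (0.13, adjusted p = 0.134).

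Tnfrsf1a encodes TNF receptor 1, the death domain receptor found on most cell types. It measured 133.2, 135.5 and 141.6 TPM in blood, 58.4, 57.3 and 58.7 in bone marrow, 16.6, 25.0 and 24.7 in spleen, 27.4, 32.0 and 26.4 in lymph node, 17.9, 15.8 and 12.9 in liver, and 26.9, 43.2 and 26.3 in lung. Blood was far above every other site and bone marrow above the remaining 4, without overlap. The blood mean was 8.83-fold the liver mean, a log2 difference of 3.07 (SE 0.18, adjusted p = 1.42e-09, limma), and 2.35-fold the bone marrow mean (log2 difference 1.22, adjusted p = 8.20e-05). The differences from spleen, lymph node and lung were 2.60, 2.22 and 2.09, and all 5 were called in all 29 alternatives. T cell scaling gave 1.76 with bone marrow, 3.45 with spleen, 3.33 with lymph node and 2.81 with lung, and a larger value still with liver. Bone marrow stood above lung by 0.87 (adjusted p = 0.00109). In the order lung, lymph node, spleen and liver, neighbours were not separated (adjusted p = 0.610, 0.215 and 0.0605). Sites further apart were: liver was below lung (adjusted p = 0.000594, limma) and lymph node (0.00223), and spleen was below lung (0.0365). TNF receptor 2 over TNF receptor 1 was 1.29 ± 0.0485 in blood, 1.85 ± 0.0694 in bone marrow and between 5.43 and 8.84 on average in the other sites (SD, n = 3).

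Myeloid markers were high in blood and bone marrow, as Tnfrsf1a was, and their part in the levels of Tnfrsf1a, Tnfrsf1b and Fas was not tested. The summed marker level was higher in bone marrow than in blood, where S100a9 averaged 20702 TPM against 9048 in blood. Of the 16 markers taken singly, 11 were called higher in blood than in bone marrow and 3 lower. Csf1r was 206 ± 8.16 in blood and 24.8 ± 0.524 in bone marrow, Csf3r 730 ± 37.3 and 145 ± 2.18, and Itgam 200 ± 2.65 and 113 ± 2.06 TPM (SD, n = 3). In lymph node, where Tnfrsf1a averaged 28.6 TPM, the 16 markers summed to 164 to 206 TPM and 10 reached at least 1 TPM. Csf1r, Csf3r and Itgam averaged 0.297, 0.22 and 0.573 TPM there.

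Fas, the receptor of Fas ligand and the other classical death receptor of the family, was also highest in blood. Its libraries measured 72.5, 57.1 and 58.2 TPM in blood, 30.1, 29.4 and 28.2 in bone marrow, 44.7, 35.6 and 53.1 in spleen, 42.9, 41.4 and 46.0 in lymph node, 38.2, 34.5 and 45.7 in liver, and 34.5, 30.2 and 36.1 in lung. No organ library reached the lowest blood library. Blood exceeded bone marrow by 1.06 (adjusted p = 2.46e-05, limma), lung by 0.87 (adjusted p = 9.94e-05) and liver by 0.65 (adjusted p = 0.00149) on the log2 scale. The smaller differences from spleen (0.49, adjusted p = 0.0119) and lymph node (0.51, adjusted p = 0.00932) were lost without blood replicate 1, with an adjusted p of 0.0704 and 0.0570. The spleen difference was also lost without spleen replicate 2 (adjusted p = 0.0704), without abundant RNA classes (0.0773) and when only the groups compared were fitted (0.0565). With T cell scaling all 5 differences were larger, at 1.60 for bone marrow, 1.35 for spleen (adjusted p = 7.82e-07), 1.62 for lymph node (adjusted p = 8.19e-08), 1.58 for liver and 1.59 for lung. Neighbours in the order of the organs were not separated from each other, but some organs further apart were. Bone marrow was below spleen (adjusted p = 0.00700, limma), lymph node (0.00850) and liver (0.0344). Spleen (adjusted p = 0.0422) and lymph node (0.0491) were above lung.

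**Figure D3:**
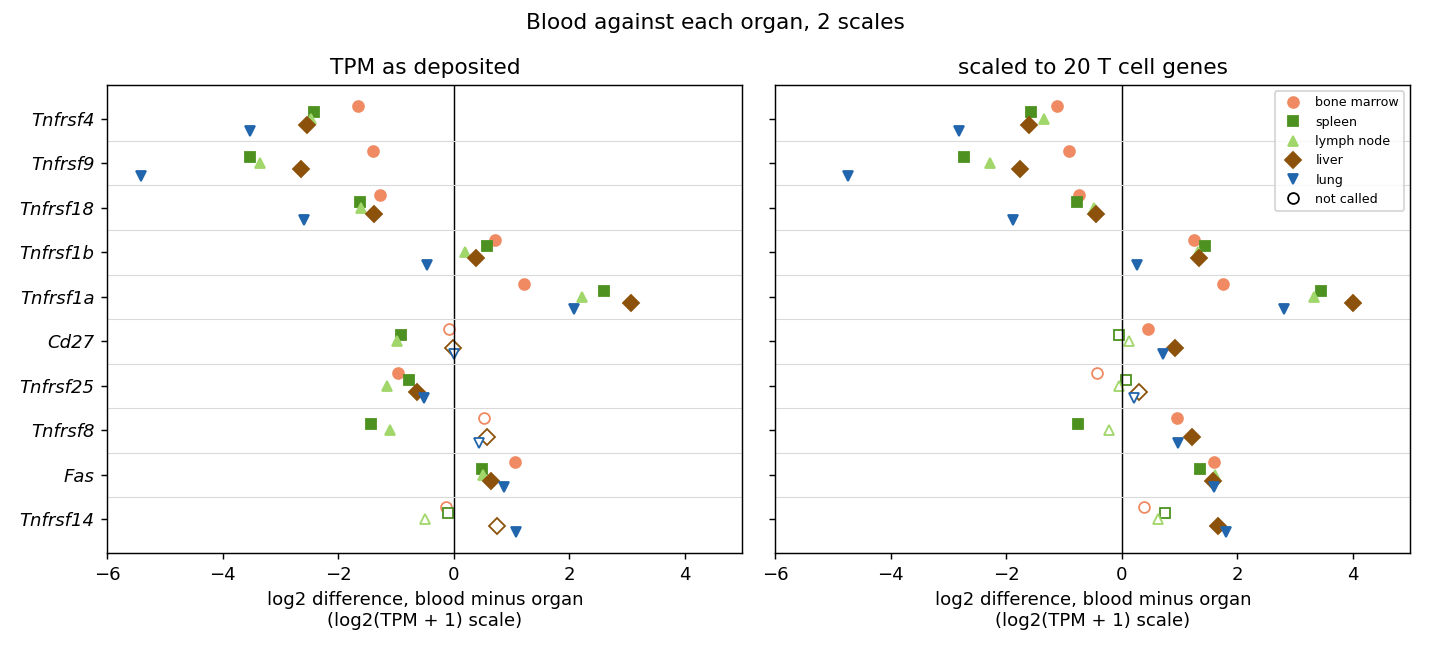
Log2 difference of blood minus each organ on the log2(TPM + 1) scale for the 10 receptors, from TPM as deposited (left) and after scaling to 20 T cell genes (right), with filled symbols for an adjusted p under 0.05 in limma. Tnfrsf4, Tnfrsf9 and Tnfrsf18 stay below 0 on both scales and Tnfrsf1a and Fas above 0, while Tnfrsf25 is below 0 only on the left in spleen, liver and lung.

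Cd27, a receptor of naive and central memory type T cells whose ligand is CD70, followed the secondary lymphoid organs. It measured 215.7, 250.3 and 249.0 TPM in blood, 244.3, 262.1 and 247.8 in bone marrow, 448.4, 443.3 and 448.9 in spleen, 471.6, 474.8 and 474.0 in lymph node, 290.7, 254.5 and 185.6 in liver, and 225.6, 242.2 and 246.7 in lung. Spleen and lymph node stood apart from the 4 other sites, which overlapped. Blood differed from spleen by -0.91 (adjusted p = 8.55e-06, limma) and from lymph node by -0.99 (adjusted p = 3.06e-06), but with T cell scaling the differences were -0.05 (adjusted p = 0.762) and 0.13 (adjusted p = 0.319). Differences of blood from bone marrow (-0.08, adjusted p = 0.669), liver (adjusted p = 0.975) and lung (adjusted p = 1.00) missed the threshold. With T cell scaling it was higher than these 3 by 0.46, 0.93 and 0.72. Liver replicate 3 was the lowest library, and without it the liver difference was -0.19 (adjusted p = 0.0394). Spleen over bone marrow, 0.83 (adjusted p = 3.95e-05), was called in all 29 alternatives.

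Tnfrsf25 encodes DR3, the death domain receptor of the ligand TL1A. Its libraries measured 54.1, 56.0 and 74.2 TPM in blood, 106.6, 122.5 and 129.9 in bone marrow, 134.6, 88.4 and 96.2 in spleen, 145.9, 127.6 and 138.0 in lymph node, 119.7, 92.8 and 75.9 in liver, and 95.7, 80.9 and 84.9 in lung. All blood libraries were below all others, though only just below the lowest liver library. The blood difference was -0.96 with bone marrow (adjusted p = 0.000444, limma), -0.77 with spleen (adjusted p = 0.00216), -1.16 with lymph node (adjusted p = 5.53e-05), -0.63 with liver (adjusted p = 0.00856) and -0.51 with lung (adjusted p = 0.0259). None of the 5 was called with T cell scaling, where they were -0.43, 0.08, -0.04, 0.30 and 0.21 in the same order. The lung difference was also lost without blood replicate 1 (adjusted p = 0.102), blood replicate 2 (0.0890) or lung replicate 1 (0.0869) and with library weights (0.0961). The liver difference was lost with library weights (adjusted p = 0.101) and when only the groups compared were fitted (0.0736). Organs next to each other in the order of levels were not separated. Lymph node was above liver by 0.53 (adjusted p = 0.0286, limma) and above lung by 0.65 (adjusted p = 0.00642). Bone marrow was above lung by 0.45 (adjusted p = 0.0454).

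Tnfrsf8, which encodes CD30, was the least expressed of the 10. It measured 2.69, 2.15 and 2.20 TPM in blood, 1.38, 1.57 and 1.07 in bone marrow, 10.9, 6.87 and 6.81 in spleen, 6.56, 6.17 and 5.87 in lymph node, 2.82, 0.97 and 0.49 in liver, and 1.73, 1.94 and 0.88 in lung. Spleen and lymph node libraries were above all others. Blood differed by -1.43 from spleen (adjusted p = 0.00141, limma) and by -1.11 from lymph node (adjusted p = 0.00866), the latter going to -0.22 (adjusted p = 0.548) with T cell scaling. The differences from bone marrow (0.52, adjusted p = 0.227), liver (0.58, adjusted p = 0.152) and lung (0.43, adjusted p = 0.273) missed the threshold, although the blood libraries lay above those of bone marrow and lung without overlap. The liver difference passed without liver replicate 1 (0.96, adjusted p = 0.00737), and that of bone marrow with library weights (0.51, adjusted p = 0.0101) and when only the groups compared were fitted (0.52, adjusted p = 0.0310). Scaled to the T cell genes, these 3 were called, at 0.95, 1.22 and 0.97.

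Tnfrsf14, which encodes HVEM, the receptor of LIGHT and of BTLA, varied widely between the libraries of liver and of lung. It measured 55.3, 55.3 and 50.9 TPM in blood, 48.9, 64.5 and 66.6 in bone marrow, 56.6, 65.0 and 52.7 in spleen, 74.0, 84.2 and 69.99 in lymph node, 15.4, 42.3 and 47.8 in liver, and 23.4, 16.7 and 39.2 in lung. Blood lay above the lung and liver libraries and below those of lymph node, and overlapped spleen and bone marrow. Only the lung difference was called (1.08, adjusted p = 0.0151, limma), and it was lost without lung replicate 2 (0.81, adjusted p = 0.0777). The liver difference of 0.75 (adjusted p = 0.0876) passed without liver replicate 2 (0.96, adjusted p = 0.0492) or liver replicate 3 (1.04, adjusted p = 0.0259). The others were -0.14 with bone marrow (adjusted p = 0.816), -0.10 with spleen (adjusted p = 0.868) and -0.49 with lymph node (adjusted p = 0.283). Scaled to the T cell genes, the differences from liver (1.67, adjusted p = 0.000323) and lung (1.80, adjusted p = 0.000197) were called, and the other 3 lay above 0 without a call.

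Among the 5 organs without blood, 65 of the 100 combinations of a receptor and an organ pair were called, where 31.9% of all combinations of a tested gene and a pair were. Bone marrow differed from spleen in 7 receptors (24.1% of all genes), from lymph node in 8 (22.5%), from liver in 6 (34.5%) and from lung in 7 (43.5%). Spleen differed from liver in 5 (31.3%) and from lung in 9 (40.8%), and lymph node from lung in 9 (42.3%). Spleen and lymph node differed in 1 receptor, Tnfrsf1b, which is near the share of all genes called for that pair (14.3%). That share was also the lowest among the organ pairs. Lymph node had 8 receptors above liver and none below, where 31.1% of all genes were called and 21.6% were higher in lymph node. Of these calls, that of Tnfrsf18 held in 14 of 29 alternatives, that of Tnfrsf1b in 22 and that of Tnfrsf9 in 28. Liver and lung differed in 5 receptors, OX40, CD137, GITR and both TNF receptors, all lower in liver, where 34.9% of all genes were called and 17.3% were lower in liver. The log2 difference of liver minus lung was -0.99 for Tnfrsf4, -2.78 for Tnfrsf9, -1.22 for Tnfrsf18, -0.86 for Tnfrsf1b and -0.98 for Tnfrsf1a.

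The make-up of the family as a whole changed with the site. The summed level of the 10 receptors was 891 ± 29.4 TPM in blood and 1059 ± 37.3 in bone marrow, then 1515 ± 40.1 in spleen, 1618 ± 15.3 in lymph node, 1204 ± 87 in liver and 2314 ± 76.7 in lung (SD, n = 3). OX40 took 6.23% of this sum in blood and 28.2% in lung. CD137 took 1.01% and 18.3%, and GITR 10.6% and 24.9%. TNF receptor 1 took 15.4% in blood, 5.49% in bone marrow and at most 1.77% on average elsewhere. Cd27 held 26.7% in blood and 29.5% in spleen but 10.3% in lung, though its mean was 238 TPM in both blood and lung. These shares need no scaling between libraries, since all 10 values come from the same library, but they include any receptor RNA of other cells.

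**Figure D4:**
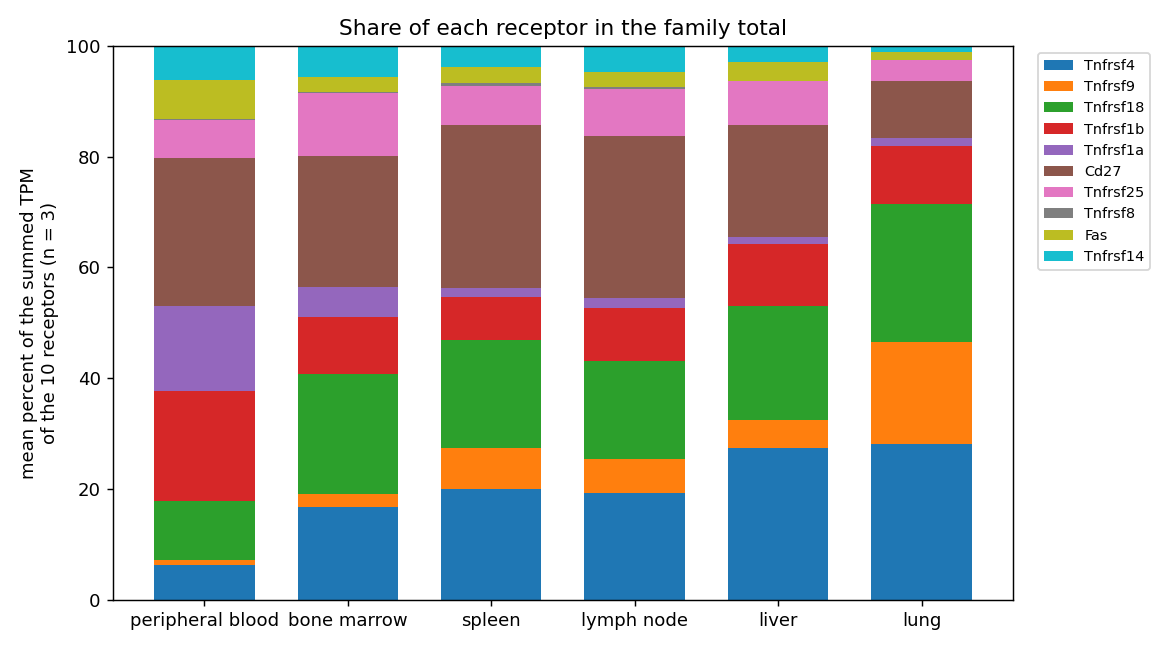
Mean percent of the summed TPM of the 10 receptors (vertical axis, linear from 0 to 100) taken by each receptor in the 6 sites, with 1 stacked bar per site (n = 3). The share of Tnfrsf4 goes from 6.23% in blood to 28.2% in lung and that of Tnfrsf1a from 15.4% in blood to 1.39% in lung.

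The ligands of these receptors were measured in the same libraries. Of 18 ligand genes, 16 had a site mean of 1 TPM or more and were tested. Higher and lower in blood were 5 and 5 against bone marrow, 5 and 7 against spleen, 5 and 8 against lymph node, 6 and 6 against liver, and 8 and 6 against lung, with median differences of -0.04, -0.46, -0.59, -0.22 and 0.03. In that order, 13.0%, 20.1%, 16.4%, 23.3% and 26.4% of all tested genes were higher in blood and 18.8%, 15.3%, 21.0%, 16.1% and 17.3% lower. Scaled to the T cell genes, the splits of the ligands were 6 and 4, 7 and 4, 8 and 2, 8 and 4, and 8 and 3, and the medians 0.28, 0.25, 0.25, 0.56 and 0.64, against 0.32, 0.69, 0.74, 0.86 and 0.71 over all tested genes. On that scale 33.1%, 53.1%, 56.7%, 61.7% and 54.4% of all tested genes were higher in blood and 7.60%, 2.95%, 2.00%, 4.71% and 6.85% lower. Tnf was lower in blood than in every organ, at 10.7 ± 0.422 TPM against 79 ± 4.49 in liver (SD, n = 3; log2 difference -2.77, adjusted p = 4.70e-11, limma) and 22 ± 3.72 to 30.1 ± 1.48 in the other organs, although with T cell scaling its differences from lymph node (-0.06, adjusted p = 0.705) and from lung (-0.28, adjusted p = 0.0656) were not called. Lta, which encodes lymphotoxin alpha, was 74.6 ± 0.767 in lymph node, 50.5 ± 9.21 in spleen, 16.2 ± 2.26 in blood and 4.08 ± 0.719 in lung. Tnfsf11, which encodes RANKL, was 4.4 ± 0.718 in blood and 16.6 ± 2.11 to 34.5 ± 0.907 in the organs, and was lower in blood in all 29 alternatives of each comparison.

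From TPM as deposited, OX40, CD137, GITR and DR3 were lower in blood than in every organ, and the ligands of these receptors were scarce in most libraries. Tnfsf4, the OX40 ligand gene, did not exceed 3.74 TPM in any library. Tnfsf9, the CD137 ligand gene, was 16.7 ± 5.6 TPM in liver and between 2.97 ± 1.06 and 4.24 ± 2.22 elsewhere (SD, n = 3), with a difference of blood from liver of -2.14 (adjusted p = 0.000268, limma). Tnfsf18, the GITR ligand gene, and Tnfsf15, which encodes TL1A, did not reach that mean at any site. Cd70, the CD27 ligand gene, was listed at 0 in all blood and liver libraries and at 2.21, 3.72 and 3.52 TPM in lung. Tnfsf8, the CD30 ligand gene, was 112 ± 1.17 in lung against 24.9 ± 1.96 in blood (-2.13, adjusted p = 3.87e-11) and 11.4 ± 0.917 in bone marrow.

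Tnfsf14 and Btla, which encode ligands of HVEM, were higher in blood than in every organ. Tnfsf14, which encodes LIGHT, was 51.3 ± 3.18 TPM in blood, 29 ± 1.12 in bone marrow, 16.8 ± 1.63 in spleen, 16.1 ± 1.11 in lymph node, 12.9 ± 4.91 in liver and 3.89 ± 1.04 in lung (SD, n = 3), with blood higher in all 29 alternatives of each comparison. Btla was 106 ± 5.95 in blood and 47.9 ± 3.65 to 86.6 ± 2.36 in the organs, and its lymph node difference (0.29, adjusted p = 0.0115, limma) was lost without blood replicate 1 (adjusted p = 0.0565) or without abundant RNA classes (0.0514). Fasl varied widely between libraries of a site, with 18.6 to 65.1 TPM in lung and 6.86 to 39.2 in liver. Against lung its difference of -1.55 (adjusted p = 0.0294) was lost with T cell scaling (adjusted p = 0.168) and without blood replicate 2 (0.0873), blood replicate 3 (0.0718) or lung replicate 2 (0.152), and against liver it was -0.37 (adjusted p = 0.642).

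Of 18 further TNF receptor superfamily genes, 13 were tested, and more were higher than lower in blood, with or without T cell scaling, at 5 and 2 against bone marrow, 5 and 1 against spleen, 8 and 1 against lymph node, 8 and 2 against liver, and 7 and 2 against lung. Over all tested genes, 13.0%, 20.1%, 16.4%, 23.3% and 26.4% were higher in blood and 18.8%, 15.3%, 21.0%, 16.1% and 17.3% lower. The median differences of the 13 genes were 0.43, 0.56, 0.80, 1.11 and 0.64, against -0.11, 0.00, -0.15, 0.07 and 0.12 over all tested genes. After scaling to the T cell genes they were 0.95, 1.30, 1.55, 1.88 and 1.31, against 0.32, 0.69, 0.74, 0.86 and 0.71. With that scaling 33.1%, 53.1%, 56.7%, 61.7% and 54.4% of all tested genes were higher in blood and 7.60%, 2.95%, 2.00%, 4.71% and 6.85% lower. Tnfrsf21, which encodes DR6, was 40.7 ± 0.428 TPM in blood, 17.1 ± 0.52 in bone marrow and at most 3.07 ± 0.756 elsewhere (SD, n = 3). Ltbr, the lymphotoxin beta receptor, which is typical of stromal and myeloid cells rather than lymphocytes, was 26.9 ± 2.89 in blood, 7.87 ± 0.62 in bone marrow, 2.61 ± 0.643 in lung and 0.0467 ± 0.00577 in lymph node. Relt was 72.2 ± 0.906 in blood and 13.4 ± 7.31 to 35.6 ± 1.32 in the organs. Its differences from bone marrow (1.11, adjusted p = 0.0211, limma) and lymph node (1.00, adjusted p = 0.0314) were lost without any 1 of the 3 blood libraries (adjusted p = 0.0512 to 0.0571 and 0.0695 to 0.0752), without bone marrow replicate 1 (0.0863) or 3 (0.0519), and without any 1 lymph node library (0.0635 to 0.0778). Tnfrsf10b, the mouse TRAIL receptor gene, was lower in blood than in every organ, at 1.98 ± 0.293 in blood and 17.4 ± 1.87 in liver, though with T cell scaling not against spleen or lymph node (adjusted p = 0.752 and 0.203). Ltbr, Tnfrsf21 and the ligand genes Tnfsf13 (19.4 ± 3.82 in blood, 4.06 ± 1.19 in bone marrow) and Tnfsf12 (11.7 ± 1.68 and 2.58 ± 1.36) were highest in blood. The summed platelet markers and the summed CD8 and natural killer markers were also highest in blood, and the summed myeloid markers in bone marrow. Taken singly, 11 of the 16 myeloid markers were called higher in blood than in bone marrow and 3 lower. The part of RNA of other cells in the levels of these receptor and ligand genes was not tested.

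Downstream of the receptors, 20 genes of NF-kappaB subunits and targets were more often lower than higher in blood from TPM as deposited, and on both scales their median lay below that of all tested genes in each of the 5 comparisons. From TPM as deposited, lower and higher were 9 and 3 against bone marrow, 10 and 3 against spleen, 12 and 0 against lymph node, 14 and 2 against liver, and 17 and 1 against lung. Among all tested genes 18.8%, 15.3%, 21.0%, 16.1% and 17.3% were lower in blood and 13.0%, 20.1%, 16.4%, 23.3% and 26.4% higher. The median differences of the 20 genes were -0.25, -0.39, -0.51, -0.60 and -1.23, against -0.11, 0.00, -0.15, 0.07 and 0.12 over all tested genes. After scaling to the T cell genes, lower and higher were 4 and 9, 3 and 14, 3 and 15, 7 and 11, and 11 and 4, with medians of 0.29, 0.46, 0.59, 0.31 and -0.51, against 0.32, 0.69, 0.74, 0.86 and 0.71 over all tested genes, which that scaling moved up as a whole. Then 7.60%, 2.95%, 2.00%, 4.71% and 6.85% of all tested genes were lower in blood and 33.1%, 53.1%, 56.7%, 61.7% and 54.4% higher. Nfkb2, the precursor subunit of the alternative pathway, was 53.8 ± 3.4 TPM in blood and 240 ± 3.76 in lung (SD, n = 3; -2.14, adjusted p = 4.58e-13, limma), and its partner Relb 26.8 ± 2.32 and 107 ± 5.73 (-1.96, adjusted p = 2.51e-10). In the other organs Nfkb2 was 70.5 ± 2.54 to 89.9 ± 4.56. With T cell scaling Nfkb2 turned higher in blood than in spleen (0.22), lymph node (0.46) and liver (0.55), while lung kept its direction. Batf, an AP-1 family factor of effector Treg cells, was 42.8 ± 5.71 in blood and 212 ± 11.7 in lung and was lower in blood in all 29 alternatives of each comparison, and the survival gene Bcl2a1b (43.4 ± 3.94 in blood, 242 ± 16.8 in liver) was so too except with bone marrow under T cell scaling (-0.09, adjusted p = 0.589).

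Of the 22 adaptor and regulator genes, 6 were lower and 3 higher in blood than in bone marrow, 7 and 4 against spleen, 11 and 1 against lymph node, 8 and 0 against liver, and 9 and 3 against lung. The shares of all tested genes were 18.8%, 15.3%, 21.0%, 16.1% and 17.3% lower and 13.0%, 20.1%, 16.4%, 23.3% and 26.4% higher. Scaling to the T cell genes turned the split of the 22 genes to 3 and 13, 1 and 15, 0 and 17, 3 and 18, and 7 and 13, with medians of 0.46, 0.71, 0.79, 0.78 and 0.58, where all tested genes had 0.32, 0.69, 0.74, 0.86 and 0.71. It put the shares of all tested genes at 7.60%, 2.95%, 2.00%, 4.71% and 6.85% lower and 33.1%, 53.1%, 56.7%, 61.7% and 54.4% higher. From TPM as deposited the medians were -0.07, -0.15, -0.32, -0.15 and -0.14, where all tested genes had -0.11, 0.00, -0.15, 0.07 and 0.12. Traf1, the adaptor that binds OX40, CD137 and TNF receptor 2, was 99.5 ± 5.5 TPM in blood, 184 ± 9.04 in bone marrow, 214 ± 14.2 in spleen, 227 ± 7.18 in lymph node, 295 ± 21.3 in liver and 394 ± 12.3 in lung (SD, n = 3). With T cell scaling its lymph node difference was -0.06 (adjusted p = 0.430, limma) and the other 4 stayed called. Tnfaip3, a deubiquitinase that limits NF-kappaB signalling, split the organs differently from the receptors: it was 961 ± 60.3 in liver, 1088 ± 9.73 in lung and 345 ± 4.73 in bone marrow, but 79.8 ± 2.83 in blood, 88.2 ± 5.57 in spleen and 63.9 ± 1.2 in lymph node. Nfkbia, which encodes the inhibitor that holds NF-kappaB in the cytoplasm, was 881 ± 50.1 in liver and 774 ± 59.4 in lung against 222 ± 3.91 in blood. Tnip1, Traf4 and Traf2 were lower in blood in all 5 comparisons, but with T cell scaling these directions held for Tnip1 in lung (-0.30), for Traf4 in liver (-0.52) and lung (-1.16), and for Traf2 in bone marrow (-0.51), and the other calls were lost or turned.

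By the size of the root mean square difference between group means of log2(TPM + 1), each gene centred on its own mean over the 6 sites, the 2 closest receptors were Cd27 and Tnfrsf25 (0.36), followed by Tnfrsf4 and Tnfrsf18 (0.39). Among 9432 genes reaching 10 TPM on average at some site, those most like Tnfrsf4 were Rgs9 (0.13), Smco4 (0.38) and Tnfrsf18 (0.39). Rgs9 averaged 0.38 TPM in blood and 14.7 in lung, and Atg4c, the gene most like Tnfrsf1a, averaged 10.7 in blood and 0.263 in liver. The added 1 TPM compresses the range of such low genes, whose fold range in TPM is wider than that of the receptor, and the likeness was not computed with another pseudocount. Tnfrsf9 had no close match, the nearest being Plagl1 (0.66) and Pdcd1 (0.68), the latter encoding the inhibitory receptor PD-1 at 4.66 ± 0.386 TPM in blood and 295 ± 17.3 in lung (SD, n = 3). Tnfrsf18 was most like Nol10 (0.19), Batf (0.21) and Myo1e (0.25), and Tnfrsf1a most like Atg4c (0.14), Tiam2 (0.16) and Plod3 (0.20). For flatter profiles many genes lie close, such as Prmt7 at 0.07 from Tnfrsf25. The likeness is over 6 group means and is a description.

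Of the 10 genes, 7 lie on chromosome 4 within 10.8 Mb, 2 on chromosome 6 and 1 on chromosome 19 (GRCm38, GENCODE M21). Tnfrsf4 (chromosome 4, 156013843 to 156016612, plus strand) and Tnfrsf18 (156026164 to 156028895, plus strand) are 9.6 kb apart with no protein-coding gene between them, and they were also close in profile. Tnfrsf1b (145213463 to 145246870, minus strand) and Tnfrsf8 (145267137 to 145315164, minus strand) are 20.3 kb apart, again with no protein-coding gene between, and differed in profile by 0.97. Cd27 (chromosome 6, 125232622 to 125237010, minus strand) and Tnfrsf1a (125349362 to 125362484, plus strand) are 112.4 kb apart with 3 protein-coding genes between them, one highest in lymph node and the other in blood. Tnfrsf9 (150914562 to 150946102) and Tnfrsf25 (152115934 to 152120119) lie on the plus strand of chromosome 4, Tnfrsf14 (154921933 to 154928563) on its minus strand, and Fas on the plus strand of chromosome 19 (34290666 to 34327772).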

How the data were processed

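Per the labels' protocols, total RNA was taken up in RNAiso Plus, then column-purified, and poly(A) libraries were built with a directional kit. The authors deposited 1 table of TPM values per library for 55487 Ensembl gene IDs, and the values sum to between 999999.27 and 1000000.62 in each. STAR, RSEM and mm10 are named in the submitters' processing notes. The annotation, versions and use of strand are not given in the sources used here. TPM keeps no depth. Between 14314 and 19797 genes were above 0 per library, fewest in liver and lung, so low values are less certain there.

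Symbols came from GENCODE M21 (55141 IDs matched). log2(TPM + 1) of the 16694 genes whose mean reached 1 TPM at any site was fitted with limma 3.58.1 in R 4.3.3, with all 18 libraries in 1 model of 6 group means, no covariate and moderated variances with trend and robust settings. Contrasts were blood minus each organ and the 10 organ pairs, with an F test over the blood contrasts. P-values were adjusted by Benjamini-Hochberg over all tested genes, and a gene was called at an adjusted p under 0.05. Fold changes on this scale understate the change of low genes. The model was tested on simulated data.

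The receptors and lists were chosen with earlier results of these data known. Named beside the 10 receptors are their ligands, Traf1, Tnfaip3, Nfkbia, and per list up to 4 genes of at least 10 TPM in a site with the largest smallest change among those called the same way in all 5 blood comparisons. Gm16008 and the markers were named after their values were seen. The 3 genes most like a receptor were ranked by root mean square difference. Alternatives were other pseudocounts and filters, scaling to 20 T cell genes, removal of abundant RNA classes, quantile normalization, other variance settings, library weights, the replicate number as a block, only the groups compared, and leaving out each library. Same-numbered libraries of different sites did not deviate together (correlations from -0.03 to 0.03 over 45 pairs).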

Additional observations from a re-analysis of the deposited data

How the results depend on the processing

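The total number of receptors called in each comparison stayed within 1.5 times under every alternative run, but its split did not: with T cell scaling the receptors higher in blood went from 3 to 5 against bone marrow and from 3 to 6 against liver and lung, and those lower from 6 to 3 against lymph node and 5 to 3 against lung. Leaving out each library in turn, the count was 10 in the F test, 7 against bone marrow, 8 to 9 against spleen and against lymph node, 7 to 9 against liver, 7 to 8 against lung and 58 to 65 over the organ pairs, with 54 over the pairs when only the groups compared were fitted. As the replicate numbers do not pair the libraries, the replicate block is given only here: with it, 64 combinations were called over the organ pairs instead of 65, the Tnfrsf18 difference of lymph node and liver being lost (adjusted p = 0.0530), and the counts against blood were the same.

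Scaling to the 20 T cell genes turned the most directions, blood minus organ. For the receptors it gave 0.26 for Tnfrsf1b with lung, 0.46 for Cd27 with bone marrow, 0.13 with lymph node, 0.93 with liver and 0.72 with lung, 0.08 for Tnfrsf25 with spleen, 0.30 with liver and 0.21 with lung, and 0.39 for Tnfrsf14 with bone marrow, 0.75 with spleen and 0.62 with lymph node. For the pathway genes it gave 0.70 for Lta with liver, 0.07 for Tnfsf4 with liver, 0.32, 0.31 and 0.63 for Tnfsf8 with spleen, lymph node and liver, 0.02, 0.41, 0.49 and 0.23 for Tnfsf9 with bone marrow, spleen, lymph node and lung, 0.50 for Fasl with liver, 0.71 for Tnfaip3 with spleen, 0.45 and 0.95 for Nfkbia with spleen and lymph node, 0.16, 0.11 and 0.29 for Tnip1 with spleen, lymph node and liver, 0.26 for Traf4 with spleen, 0.26, 0.40 and 0.30 for Traf2 with lymph node, liver and lung, 0.04 and 0.35 for Relb with lymph node and liver, and 0.22, 0.46 and 0.55 for Nfkb2 with spleen, lymph node and liver. The other turned values were near 0: Cd27 with liver and lung was 0.01 and 0.04 under quantile normalization and 0.01 and 0.01 with library weights. Leaving out libraries moved Cd27 with liver between -0.19 and 0.13 (0.06 without blood replicate 1, 0.13 without liver replicate 1, 0.03 without liver replicate 2) and with lung between -0.04 and 0.07 (0.07 without blood replicate 1, 0.01 and 0.02 without lung replicates 2 and 3). Fasl with liver ranged from -0.76 to 0.41, the latter without liver replicate 3. The T cell scaling divided each library by a factor that averaged 0.615 in blood and 0.896 to 1.34 in the organs. It thus raised blood values relative to the organs. What lay behind the turned directions was not tested. Liver and lung libraries varied most, with a median coefficient of variation of 10.5% and 8.0% for genes of at least 100 TPM against 2.55% in lymph node, which limits calls of small differences there.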
